A study of Mus musculus with 15 samples.

Results

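The genes described here are the axon and vessel guidance genes of the semaphorin, plexin, Slit, Robo, netrin, Unc5, ephrin and Eph receptor families, measured in endothelial cells of the adult mouse retina. They were taken by gene symbol, which gave 141 probe sets for 66 genes out of 45101 probe sets and 18194 genes on the array. The set held 20 semaphorins, 10 plexin entries, 7 Slits and Robos, 8 netrins and Unc5 receptors, 8 ephrins and 13 Eph receptors. One of the plexin entries, Plxna4os1, is a noncoding transcript whose symbol begins like that of a plexin, and the other 65 genes code for proteins. Cells were isolated with anti-PECAM beads, which bind a surface protein of endothelium, from adult mice of a mixed C57Bl6/129 background, and cells of 5 to 10 mice were pooled for each array. The 4 groups were Fz4-/- mice (3 arrays, called Fz4 KO), Lrp5-/- mice (3 arrays, Lrp5 KO), mice lacking Norrin (3 arrays, Norrin KO) and wild type (6 arrays). The labels give no conditional allele, Cre driver or further agent for any group, and the pooling hides the spread between single mice.

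Semaphorins are secreted or membrane-bound ligands that signal through plexins, and most secreted semaphorins need a neuropilin as co-receptor. Slits bind Robo receptors, netrins bind Dcc, neogenin and Unc5 receptors, and ephrins bind Eph receptors on touching cells, where both partners can signal. All of them steer growing axons, and in vessels they take part in sprouting, in the repulsion of tip cells and in the separation of arteries from veins, where ephrin-B2 is the arterial and EphB4 the venous partner. Norrin is a secreted ligand of the receptor Frizzled4, which works with the co-receptor Lrp5 to stabilise beta-catenin in retinal endothelium, and loss of any of the 3 leaves a retina with defective vessels. The comparison asked which guidance genes differed in the mutant endothelium long after development.

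The arrays carried strong endothelial signal. The mean log2 signal of 10 endothelial markers lay between 11.66 and 12.02 on every array, and array medians over all probe sets lay between 5.88 and 6.04. The steady mean hides single markers that moved. In the test described below 3 of the 10 rose and 4 fell over the mutants, 1 of them falling by 2-fold or more. That is 70%, where 23.9% of all genes passed. Fzd4 averaged 4.22 ± 0.30 (SD, n = 3) in Fz4 KO against 12.09 ± 0.20 (SD, n = 6) in wild type, and Lrp5 averaged 4.91 ± 0.45 (SD, n = 3) in Lrp5 KO against 7.69 ± 0.27 (SD, n = 6). Ndp, the gene of Norrin, lay below 5 on every array and does not check the Norrin KO label. The 3 Norrin KO arrays had low Xist (4.12 to 4.98) and high Eif2s3y (9.77 to 10.32), a pattern of male RNA, although every label gives mixed gender. Lrp5 KO 1 and 2 and wild type 4 and 5 showed the same pattern. Fz4 KO 3, Lrp5 KO 3 and wild type 3 and 6 had the opposite, female pattern (Xist 11.86 to 12.27 and Eif2s3y 2.69 to 3.25), and both genes were high on the remaining 4 arrays. Lrp5 KO 1, 2 and 3 thus matched wild type 4, 5 and 6 in sex pattern, as Fz4 KO 1, 2 and 3 matched wild type 1, 2 and 3. Efnb1, Plxna3 and Plxnb3 are X-linked members. Markers of other cells were present too. The mean of 12 macrophage and microglia markers was 7.64 to 8.79 in wild type and 8.70 to 9.87 over the 9 mutant arrays. Of the 12, 7 were higher over the mutants, where 14.0% of all genes were, and 1 lay below the array median on every array. The mean of 11 photoreceptor markers was 5.86 to 6.65 in wild type and 6.91 to 8.09 in Lrp5 KO. It was 6.24 to 7.49 in Fz4 KO and 5.68 to 7.14 in Norrin KO, and 1 of the 11 was higher over the mutants. The difference between 3' and 5' probe sets of actin, a sign of RNA integrity and amplification, was 1.05 to 2.92 in Norrin KO and 0.56 to 1.04 on the other 12 arrays. Fits that held the macrophage mean, the photoreceptor mean or this 3' to 5' gap constant were made beside the main one, and the part of these differences in any single result was otherwise not tested. The macrophage means of wild type and mutants hardly overlapped, so the fit with that mean cannot separate it well from genotype. In that fit 7.54% of all genes passed over the mutants, against 23.9% without it. In such bulk samples fewer cells of a type and less RNA per cell cannot be told apart.

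Guidance genes passed the test at a higher share than all genes in Fz4 KO, in Norrin KO and over the mutants, and most of those that passed rose. A gene passed at an adjusted p under 0.05 in limma, with p-values adjusted over all 18194 genes. In Fz4 KO 15 guidance genes rose and 5 fell, 30.3% of the 66, where 16.7% of all genes passed (10.7% higher and 6.08% lower). In Norrin KO 20 rose and 8 fell, 42.4%, where 25.8% of all genes passed (16.7% higher and 9.13% lower). In Lrp5 KO 9 rose and 2 fell, 16.7%, close to the 12.9% of all genes (5.63% higher and 7.27% lower). For the mean of the 3 mutants 21 rose and 5 fell, 39.4% against 23.9% of all genes (14.0% higher and 9.91% lower). The median log2 difference over the mutants was 0.15 for the 66 guidance genes and -0.01 for all genes. These shares are descriptions and no test of the set was made. The 3 mutant contrasts share the same 6 wild-type arrays, so their counts are not independent of each other.

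A core of 9 guidance genes passed in each mutant in one direction, 13.6% of the 66, where 7.57% of all genes did. Sema3f, Slit3, Sema6d, Robo1, Plxnd1, Plxnb2 and Efnb2 rose and Sema3c and Epha4 fell, where 4.49% of all genes rose and 3.08% fell in this way. All 9 mutant arrays lay beyond all 6 wild-type arrays for 12 guidance genes (18.2%, against 8.29% of all genes). They were 9 higher and 3 lower, where 4.76% and 3.53% of all genes were, namely these 9 together with the higher Efnb1 and Robo3 and the lower Sema4f. At the other end, 36 guidance genes (54.55%) passed in no mutant, 10 (15.15%) passed in 1 and 11 (16.67%) in 2. All genes were not counted in this way, so whether these 3 shares differ from those of all genes is not known. When only genes above the median gene were tested, 22 of 32 guidance genes passed over the mutants, where 39.35% of all such genes did.

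**Figure D1:**
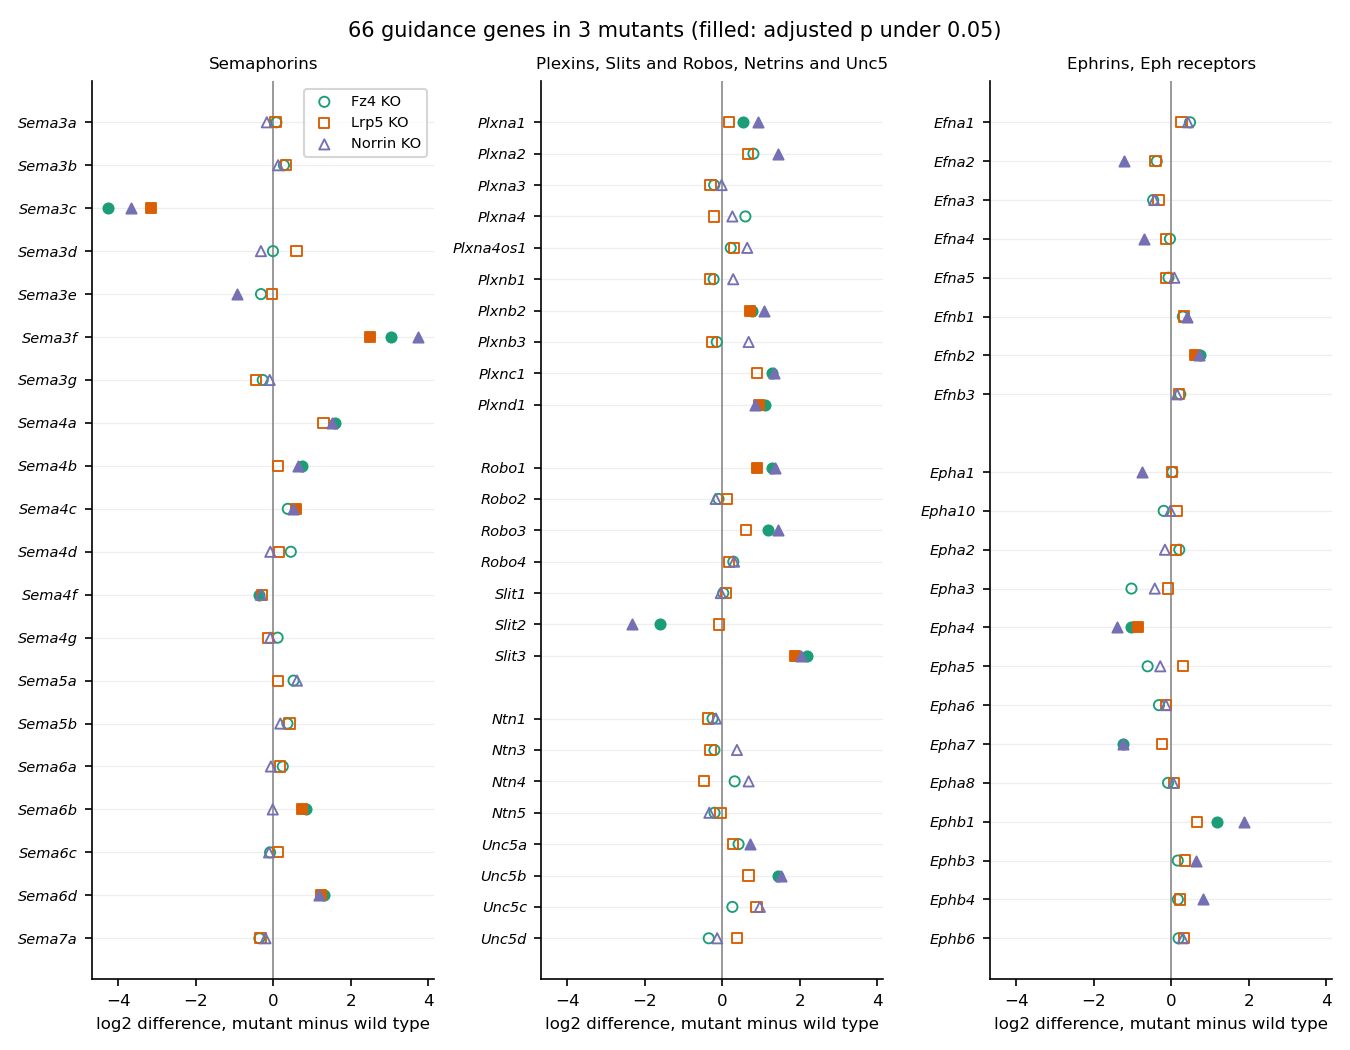
Log2 difference from wild type (x axis) of each of the 66 guidance genes (y axis, grouped by family) in Fz4 KO (circles), Lrp5 KO (squares) and Norrin KO (triangles), with filled symbols for an adjusted p under 0.05. Sema3c lies at the far left and Sema3f at the far right in all 3 mutants, most other genes lie within 1 log2 unit of 0, and no netrin symbol is filled.

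Promoter sequence was read for those of the 9 core genes that have a single start in the promoter table and a log2 difference of 1 or more over the mutants. Sema3f, which meets the size rule, has no entry in that table. Sema6d meets it too but has several starts and is not shown. The genes shown are 2 genes that fell and 2 that rose, and they are shown so that genes moving in opposite directions can be compared base by base. Each line gives the 250 bases before the start in GRCm38.p6 from RefSeq, in the direction of the gene, in lower case, with matches to a searched motif in capitals.
Sema3c promoter (chr5:17574566-17574815, plus strand): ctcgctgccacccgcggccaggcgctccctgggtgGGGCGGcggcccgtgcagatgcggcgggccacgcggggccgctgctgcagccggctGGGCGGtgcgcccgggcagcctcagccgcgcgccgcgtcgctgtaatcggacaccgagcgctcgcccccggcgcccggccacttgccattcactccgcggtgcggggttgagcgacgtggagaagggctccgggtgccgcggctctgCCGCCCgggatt
Epha4 promoter (chr1:77515089-77515338, minus strand): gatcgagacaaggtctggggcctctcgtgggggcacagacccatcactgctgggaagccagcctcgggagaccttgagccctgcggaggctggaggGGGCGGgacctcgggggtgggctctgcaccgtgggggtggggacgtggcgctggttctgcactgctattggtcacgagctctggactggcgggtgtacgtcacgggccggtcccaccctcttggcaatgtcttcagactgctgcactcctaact
Slit3 promoter (chr11:35121206-35121455, plus strand): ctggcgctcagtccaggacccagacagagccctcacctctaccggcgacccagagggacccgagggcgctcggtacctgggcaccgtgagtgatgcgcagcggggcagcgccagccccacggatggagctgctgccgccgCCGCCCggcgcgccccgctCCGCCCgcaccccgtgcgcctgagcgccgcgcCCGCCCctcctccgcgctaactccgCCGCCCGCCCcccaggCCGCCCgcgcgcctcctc
Robo1 promoter (chr16:72662899-72663148, plus strand): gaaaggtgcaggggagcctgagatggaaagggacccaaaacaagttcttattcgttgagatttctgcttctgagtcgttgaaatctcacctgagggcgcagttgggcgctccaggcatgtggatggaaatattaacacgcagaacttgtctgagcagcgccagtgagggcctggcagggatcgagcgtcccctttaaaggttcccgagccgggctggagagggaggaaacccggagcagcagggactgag

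The motifs searched on both strands were the GC box with the letters GGGCGG, the TCF/LEF motif with CTTTGNT, the SOX motif with ACAATG, the ETS motif with AGGAAG and the GATA motif with AGATAA. No match of one motif overlapped a match of another in these 4 windows. Only GC boxes were found in these 4 windows. Sema3c held 3, Epha4 held 1 and Slit3 held 6, some of them overlapping each other, while Robo1 held none. Of the core genes not shown, Sema6d and Plxnb2 each had a window with a TCF/LEF match, and a window of Plxnd1 had an ETS match. Sema3c and Slit3, which moved in opposite directions, had the most GC-rich windows, 78.4% and 78.8% G or C, against 66% for Epha4 and 56% for Robo1. RefSeq promoters were matched for 56 of the 66 guidance genes, 72 windows in all. A GC box occurred in 70.8% of these, against 32.7% of all 32851 promoter windows and 42.6% of the 21263 windows of protein-coding genes. TCF/LEF matches were in 8.33% of the guidance windows, 16.0% of all windows and 14.8% of those of protein-coding genes. In the same order, SOX matches were in 9.72%, 10.7% and 9.35%, ETS matches in 34.7%, 29.5% and 28.45%, and GATA matches in 4.17%, 9.99% and 8.81%. The median G or C content was 64.2% in the guidance windows, 52.4% in all and 55.6% in those of protein-coding genes, and it moves with the share of GC boxes. These are matches of letters in short windows and do not show binding.

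Among the secreted class 3 semaphorins, 1 gene fell and 1 rose by large factors, and the other 5 did not pass over the mutants. The share that passed, 28.6% of the 7, was near the 23.9% of all genes. Sema3c, a secreted ligand that signals through neuropilins with plexins, had wild-type log2 signals with lowest, median and highest values of 11.16, 11.63 and 11.86. The Fz4 KO arrays read 6.99, 7.03 and 7.95, the Lrp5 KO arrays 7.86, 8.78 and 8.69 and the Norrin KO arrays 8.69, 7.88 and 7.21. Every mutant array lay more than 2 log2 units below every wild-type array. The log2 difference was -4.27 ± 0.31 (SE) in Fz4 KO, -3.15 ± 0.31 for Lrp5 KO and -3.67 ± 0.31 for Norrin KO, with adjusted p = 2.2e-07, 6.7e-06 and 1.0e-06. Over the mutants the signal was 7.70% of wild type. A second, dimmer probe set of Sema3c fell by 4.25 ± 0.24 (SE) on the log2 scale over the mutants, from a wild-type median of 9.15 to a mutant median of 4.96.

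Sema3f, which signals mainly through neuropilin 2 and is known as a repellent of endothelial and lymphatic cells, moved the opposite way. Its wild-type log2 signals had lowest, median and highest values of 5.26, 5.72 and 5.91, around or below the array median. The Fz4 KO arrays read 8.94, 8.56 and 8.63, the Lrp5 KO arrays 8.09, 8.49 and 7.91 and the Norrin KO arrays 9.48, 9.25 and 9.53. No mutant array came within 1 log2 unit of wild type, and the 3 mutants did not overlap each other. The log2 difference was 3.05 ± 0.17 (SE) in Fz4 KO, 2.50 ± 0.17 in Lrp5 KO and 3.75 ± 0.17 in Norrin KO, with adjusted p = 1.3e-08, 1.7e-07 and 2.1e-09. Over the mutants this was an 8.57-fold rise (log2 difference 3.10 ± 0.13, adjusted p = 2.4e-10). The other 2 probe sets of Sema3f also rose, by 2.31 ± 0.39 and 3.39 ± 0.23 (SE).

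Sema3e, the class 3 semaphorin that binds plexin D1 directly, fell in Norrin KO. Its wild-type values were 6.37, 6.67 and 7.32 and its Norrin KO values 5.96, 5.90 and 5.62, all below wild type (log2 difference -0.93 ± 0.23, adjusted p = 0.0075). The Fz4 KO and Lrp5 KO values overlapped wild type, with log2 differences of -0.32 and -0.03. With the macrophage mean held constant the Norrin KO value was -0.94 (adjusted p = 0.15). Sema3g, a semaphorin of arterial endothelium, was bright on every array, at 11.31 to 11.88 in wild type and 11.12 to 11.65 in the mutants, and did not pass over the mutants (log2 difference -0.27 ± 0.11, 95% interval -0.49 to -0.04, adjusted p = 0.085). The brightest probe set of Sema3a, a ligand of neuropilin 1, had a log2 difference of -0.01 ± 0.28 over the mutants (adjusted p = 0.99). The 2 dimmer probe sets of Sema3a rose, by 1.13 ± 0.20 (adjusted p = 8.1e-04) and 0.71 ± 0.19 (adjusted p = 0.013), so that the call for this gene turns on the probe set read.

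Of the 13 membrane-bound semaphorins of classes 4 to 7, 5 rose and 1 fell over the mutants (46.2%, where 23.9% of all genes passed, 14.0% higher and 9.91% lower). Sema6d, a transmembrane ligand of plexin A1, was bright in wild type, at 10.26, 10.54 and 10.71 (lowest, median and highest). It read 11.75, 11.91 and 11.82 on the Fz4 KO arrays, 11.98, 11.61 and 11.61 on the Lrp5 KO arrays and 11.51, 11.65 and 11.88 on those of Norrin KO. All mutant arrays lay above all wild-type arrays, and the mutants overlapped each other. The log2 difference was 1.32 ± 0.14 (SE), 1.23 ± 0.14 and 1.18 ± 0.14 in these 3 mutants, with adjusted p = 9.5e-06, 2.6e-05 and 2.5e-05. All 4 probe sets of the gene rose over the mutants, by 1.01 to 1.60.

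Sema4a, a membrane semaphorin also known from immune cells and the pigment epithelium of the eye, rose in Fz4 KO (log2 difference 1.60 ± 0.49, adjusted p = 0.036) and Norrin KO (1.52 ± 0.49, adjusted p = 0.034). In Lrp5 KO the difference was 1.30 ± 0.49 (adjusted p = 0.1). Its wild-type values were widely spread, at 5.99, 7.13 and 8.46, and overlapped the mutant range of 7.96 to 9.51. With the macrophage mean held constant the value over the mutants was 0.61 (adjusted p = 0.66), where without it the value was 1.48 (adjusted p = 0.0081). The cause of that change was not tested. The Fz4 KO call ended without Fz4 KO 2 or 3 or wild type 1, 2, 4 or 6 (adjusted p = 0.053 to 0.16), and the Norrin KO call without Norrin KO 1 or 3 or wild type 1, 4 or 6 (adjusted p = 0.051 to 0.17).

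Sema6b, a transmembrane ligand of A plexins, rose in Fz4 KO (10.70, 10.50 and 10.45) and Lrp5 KO (10.50, 10.38 and 10.44) above wild type (9.44, 9.73 and 9.93). The log2 differences were 0.84 ± 0.19 (SE, adjusted p = 0.0061) and 0.73 ± 0.19 (adjusted p = 0.02). In Norrin KO it read 9.07, 10.06 and 9.96, with the first array below all wild-type arrays and the other 2 above them. The Norrin KO difference was -0.01, and 0.51 with the 3' to 5' gap held constant. The first Norrin KO array is the one with the widest gap, 2.92. The Fz4 KO and Lrp5 KO calls ended with the macrophage mean held constant (adjusted p = 0.225 and 0.142). The Lrp5 KO call ended without Lrp5 KO 1 (adjusted p = 0.078) or Lrp5 KO 3 (adjusted p = 0.067).

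Sema7a, a lipid-anchored semaphorin, was bright in wild type (11.48, 11.93 and 12.10) and read 11.29 to 11.74 in the mutants, without passing over them (log2 difference -0.30 ± 0.10, adjusted p = 0.05). Sema4d, a ligand of plexin B1 made by immune cells among others, and Sema6a, a ligand of A plexins, overlapped wild type in every mutant. Their log2 differences over the mutants were 0.17 ± 0.22 (95% interval -0.29 to 0.64) and 0.12 ± 0.22 (95% interval -0.36 to 0.60). The remaining calls over the mutants in these classes were smaller, 0.50 for Sema4b, 0.49 for Sema4c and -0.33 for Sema4f, and the last of these lay below the array median on every array.

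Plexins, the receptors of semaphorins, rose or did not pass. None of the 10 entries fell in any mutant, and 5 rose over the mutants (50%, where 14.0% of all genes rose). Plxnd1, the receptor of Sema3e that is known from endothelium, had wild-type values of 9.02, 9.53 and 9.73 and read 10.63, 10.59 and 10.47 on the Fz4 KO arrays, 10.52, 10.68 and 10.02 on the Lrp5 KO arrays and 10.01, 9.99 and 10.89 on those of Norrin KO. Every mutant array lay above every wild-type array, and the third Norrin KO array stood above the other 2. Set against wild type, the log2 differences came to 1.10 ± 0.22 (SE, adjusted p = 0.0024), 0.95 ± 0.22 (adjusted p = 0.0091) and 0.84 ± 0.22 (adjusted p = 0.011). The call for Norrin KO was lost without Norrin KO 3 (adjusted p = 0.073), and that for Lrp5 KO without Lrp5 KO 2 (adjusted p = 0.0504). Holding the 3' to 5' gap constant also ended the Norrin KO call (adjusted p = 0.082).

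Plxnb2, a receptor of class 4 semaphorins, rose from wild-type values of 8.23, 8.68 and 8.96 to 9.45, 9.39 and 9.34 on the Fz4 KO arrays, 9.13, 9.76 and 9.14 on the Lrp5 KO arrays and 9.80, 9.36 and 10.00 on those of Norrin KO. Again no mutant array overlapped wild type. This gave log2 differences of 0.77, 0.72 and 1.09 (SE 0.19 each), with adjusted p = 0.011, 0.021 and 7.1e-04. The second Lrp5 KO array was the highest of its group, and without it the Lrp5 KO call ended (adjusted p = 0.12). Holding the macrophage mean constant ended the Fz4 KO and Lrp5 KO calls (adjusted p = 0.145 and 0.083).

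Plxna2 and Plxna1, plexins that pair with neuropilins for class 3 semaphorins, were highest in Norrin KO. For Plxna2 the wild-type values were 9.52, 10.12 and 10.95 and the Norrin KO values 12.05, 11.29 and 11.55, all above wild type (log2 difference 1.43 ± 0.28, adjusted p = 0.0016). With the 3' to 5' gap held constant that value was 1.0 (adjusted p = 0.081). In Fz4 KO and Lrp5 KO the differences of 0.81 and 0.67 did not pass (adjusted p = 0.061 and 0.14). All 4 probe sets of Plxna2 passed over the mutants, by 0.53 to 0.97. Plxna1 rose in Norrin KO (0.92 ± 0.16, adjusted p = 9.5e-04) and in Fz4 KO (0.55 ± 0.16, adjusted p = 0.034), and had a difference of 0.17 in Lrp5 KO (adjusted p = 0.63). Its call in Fz4 KO was lost without any 1 of the 3 Fz4 KO arrays or of wild type 3 to 6 (adjusted p = 0.055 to 0.12).

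Plxnc1, the receptor of Sema7a, is also known from myeloid cells. It rose in Fz4 KO (1.28 ± 0.38, adjusted p = 0.029) and Norrin KO (1.34 ± 0.38, adjusted p = 0.017), with wild-type values of 4.71, 5.86 and 6.70 that overlapped the mutant range of 6.46 to 7.33. With the macrophage mean held constant its value over the mutants was 1.3 (adjusted p = 0.17). The call over the mutants ended there, although that value was close in size to the Fz4 KO and Norrin KO differences above. The Fz4 KO call also ended without Fz4 KO 1, Fz4 KO 3 or wild type 6 (adjusted p = 0.11, 0.14 and 0.052), and the Norrin KO call without Norrin KO 1 or 2 (adjusted p = 0.069 and 0.071). Of its 6 probe sets 2 passed.

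Among Slits and Robos, a Slit rose, a Slit fell and 2 receptors rose over the mutants. That is 57.1% of the 7, where 23.9% of all genes passed (14.0% higher and 9.91% lower). Slit3, a secreted Robo ligand known to act on endothelial cells, had wild-type values of 5.09, 5.54 and 5.97, from below the array median up to it. It read 7.67, 7.32 and 8.17 on the Fz4 KO arrays, 7.32, 7.83 and 7.09 on the Lrp5 KO arrays and 8.03, 7.22 and 7.48 on those of Norrin KO. All 9 mutant arrays lay above all 6 wild-type arrays by more than 1 log2 unit. As log2 differences from wild type these were 2.19 ± 0.26 (SE, adjusted p = 3.2e-05), 1.88 ± 0.26 (adjusted p = 1.8e-04) and 2.04 ± 0.26 (adjusted p = 5.2e-05), or 4.10-fold over the mutants.

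Slit2, the paralogue that is also made by neurons and glia of the retina, fell in Fz4 KO and Norrin KO. Its wild-type values were 7.68, 8.12 and 8.99. The Fz4 KO arrays read 6.93, 7.11 and 5.75 and the Norrin KO arrays 4.96, 6.02 and 6.67, all below wild type, while the Lrp5 KO arrays read 9.24, 7.75 and 7.34, on both sides of the wild-type range. The log2 differences were -1.61 ± 0.45 (SE, adjusted p = 0.023), -2.32 ± 0.45 (adjusted p = 0.0017) and, in Lrp5 KO, -0.09 ± 0.45 (adjusted p = 0.95). A second probe set fell over the mutants by 0.83 ± 0.17 (SE). The Fz4 KO call ended without Fz4 KO 3 (adjusted p = 0.17), and with the macrophage mean held constant the value over the mutants was -0.52 (adjusted p = 0.69). Slit1, the third member, had a log2 difference of 0.03 over the mutants (adjusted p = 0.93).

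Robo1, a Slit receptor of endothelium and neurons, rose in each mutant. Its wild-type values were 9.37, 9.56 and 10.02, the highest of them on wild type 4, and the mutants read 10.76, 11.00 and 10.89 on the Fz4 KO arrays, 10.65, 10.34 and 10.45 on the Lrp5 KO arrays and 10.60, 10.96 and 11.28 on those of Norrin KO. Every mutant array lay above every wild-type array. Set against wild type, the log2 differences came to 1.29 ± 0.17 (SE, adjusted p = 6.9e-05), 0.89 ± 0.17 (adjusted p = 0.0023) and 1.36 ± 0.17 (adjusted p = 3.8e-05). Another of its 3 probe sets rose, by 0.70 ± 0.22, and the dimmest had a log2 difference of 0.17 ± 0.29. With the mean of all its probe sets the Fz4 KO and Lrp5 KO calls ended (0.64 and 0.60, adjusted p = 0.055 and 0.086), and the Lrp5 KO call also ended without Lrp5 KO 1, Lrp5 KO 3 and wild type 4 together (adjusted p = 0.069).

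Robo4, the Robo of endothelium, was bright and moved little, at 11.39, 11.69 and 11.90 in wild type and 11.70 to 12.08 in the mutants. It did not pass over the mutants (log2 difference 0.25 ± 0.09, 95% interval 0.05 to 0.46, adjusted p = 0.067). Robo3, better known from commissural axons, rose from a dim wild-type level of 3.75, 4.47 and 4.82 in Fz4 KO (1.19 ± 0.24, adjusted p = 0.0029) and Norrin KO (1.44 ± 0.24, adjusted p = 5.3e-04). Its second probe set had a log2 difference of -0.40 ± 0.14 over the mutants (adjusted p = 0.060), opposite in sign. The Fz4 KO call of Robo3 ended with the mean of its probe sets (0.31, adjusted p = 0.26) and with the macrophage mean held constant (1.2, adjusted p = 0.11). Robo2 was dim on every array and did not pass.

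Netrins did not pass in any mutant, while 2 of the 4 Unc5 receptors rose over the mutants. Of these 8 genes together 25% passed over the mutants, near the 23.9% of all genes. None of the 4 netrins passed in limma in any mutant or over the mutants. Ntn4, a laminin-like netrin of vascular basement membranes, had wild-type values of 9.10, 9.36 and 9.64 and a log2 difference of 0.18 ± 0.24 over the mutants (95% interval -0.35 to 0.70). Its values were spread widely in the mutants, from 8.15 on Lrp5 KO 1 to 10.98 on Norrin KO 1. Ntn1, the classical netrin, had a log2 difference of -0.26 ± 0.22 (95% interval -0.73 to 0.22).

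Unc5b, a repulsive netrin receptor of tip cells and arteries, rose in Fz4 KO and Norrin KO. Its wild-type values were 6.58, 7.23 and 7.72. It read 8.86, 8.58 and 8.50 in Fz4 KO and 8.97, 8.33 and 8.86 in Norrin KO, all above wild type, and 7.70, 8.27 and 7.71 in Lrp5 KO, where 2 arrays lay inside the top of the wild-type range. This gave log2 differences of 1.43 ± 0.23 (SE, adjusted p = 5.0e-04), 1.51 ± 0.23 (adjusted p = 2.6e-04) and 0.68 ± 0.23 (adjusted p = 0.07). Both of its probe sets rose over the mutants. Unc5a, a dim paralogue, rose by 0.71 in Norrin KO. The other netrin receptors, Dcc and Neo1, had log2 differences of -0.12 and 0.25 over the mutants and did not pass (adjusted p = 0.64 and 0.41).

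Of the 3 B ephrins, Efnb1 and Efnb2 rose over the mutants, and Efnb3 did not pass (log2 difference 0.19 ± 0.20, adjusted p = 0.54). Of all 8 ephrins 3 rose and 0 fell over the mutants (37.5%, where 14.0% of all genes rose). Efnb2, the ephrin of arterial and sprouting endothelium, had wild-type values of 11.14, 11.60 and 11.66 and read 12.15, 12.34 and 12.19 on the Fz4 KO arrays, 12.18, 12.04 and 12.07 on the Lrp5 KO arrays and 12.01, 12.22 and 12.35 on those of Norrin KO. On this probe set, the brightest, no mutant array overlapped wild type, and the mutants overlapped each other. As log2 differences from wild type these were 0.74, 0.61 and 0.71 (SE 0.14 each), with adjusted p = 0.0017, 0.009 and 0.0019. With the macrophage mean held constant the value over the mutants was 0.39 (adjusted p = 0.22), against 0.69 without it. Of its 4 probe sets 3 rose, but on none of the dimmer ones did all mutant arrays lie above all wild-type arrays. On 1 of these Norrin KO 1 read 6.413, below the lowest wild-type array at 6.605.

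Efnb1, an X-linked ephrin, rose by a smaller amount over the mutants (log2 difference 0.35 ± 0.10, adjusted p = 0.016), from 8.38, 8.56 and 8.71 in wild type to 8.74 to 9.28 in the mutants, with no overlap. Quantile normalizing the arrays again ended that call (0.28, adjusted p = 0.091). Efna1, an ephrin that is induced in inflamed endothelium, had a log2 difference of 0.39 ± 0.13 over the mutants (adjusted p = 0.039), a call that ended without any 1 of 11 single arrays (adjusted p = 0.050 to 0.091). Efna2 fell in Norrin KO, from wild-type values of 8.61, 10.13 and 10.35 to 8.52, 8.44 and 8.96 (log2 difference -1.21 ± 0.36, adjusted p = 0.023). Those values overlapped, since the lowest wild-type array lay inside the Norrin KO range, and the call ended without Norrin KO 1 or 2 (adjusted p = 0.084 and 0.078).

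Eph receptors moved in both directions. Over the mutants 2 of the 13 rose and 2 fell (30.8%, where 23.9% of all genes passed). Epha4, which binds ephrins of both classes, fell in each mutant. It was bright and tight in wild type, at 11.20, 11.23 and 11.33, and read 10.21, 10.18 and 10.27 on the Fz4 KO arrays, 10.46, 10.43 and 10.27 on the Lrp5 KO arrays and 9.69, 9.91 and 9.97 on those of Norrin KO. Every mutant array lay below every wild-type array, and Norrin KO lay below the other mutants. The log2 differences were -1.04, -0.87 and -1.40 (SE 0.10 each), with adjusted p = 5.5e-06, 4.5e-05 and 2.5e-07. All 5 probe sets of Epha4 fell over the mutants, by 0.62 to 1.23.

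Ephb1, a receptor of B ephrins, rose in Norrin KO and Fz4 KO. Its wild-type values were 5.30, 5.72 and 6.64. It read 7.05, 6.75 and 7.17 in Fz4 KO and 7.87, 7.41 and 7.77 in Norrin KO, all above wild type, and 6.57, 6.37 and 6.50 in Lrp5 KO, below the highest wild-type array. Set against wild type, the log2 differences came to 1.18 ± 0.25 (SE, adjusted p = 0.0042), 1.88 ± 0.25 (adjusted p = 8.4e-05) and 0.67 ± 0.25 (adjusted p = 0.1).

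Ephb4, the venous partner of ephrin-B2, rose in Norrin KO, where it read 10.18, 9.87 and 10.03 against 8.68, 9.26 and 9.70 in wild type (log2 difference 0.83 ± 0.19, adjusted p = 0.005). With the 3' to 5' gap held constant the value was 0.64 (adjusted p = 0.12). Fz4 KO and Lrp5 KO overlapped wild type, with differences of 0.17 and 0.23. Epha2, a receptor of A ephrins in angiogenesis, had a log2 difference of 0.06 ± 0.14 over the mutants (95% interval -0.25 to 0.36). Epha7, better known from neurons, fell in Fz4 KO (-1.25 ± 0.36, adjusted p = 0.025) and Norrin KO (-1.24 ± 0.36, adjusted p = 0.02) from 4.60, 5.47 and 6.31 in wild type. It ended as a call without any 1 of the Fz4 KO arrays (adjusted p = 0.060 to 0.12) or without Norrin KO 2 (adjusted p = 0.10), and with the macrophage mean held constant its value over the mutants was -0.25.

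**Figure D2:**
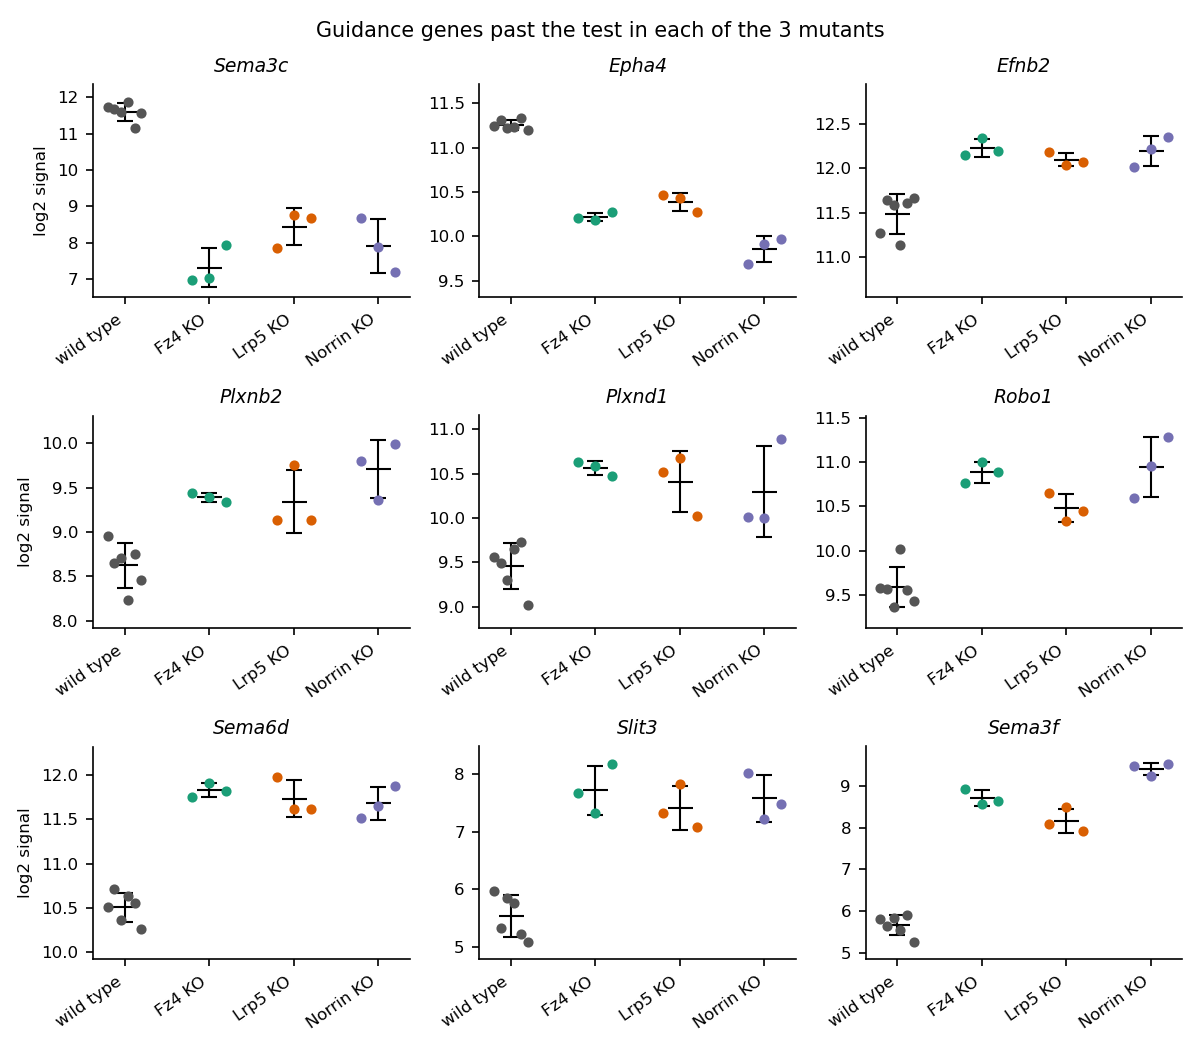
Log2 signal (y axis) on each array of the 9 guidance genes that passed in each mutant, by genotype (x axis: 6 wild-type arrays and 3 arrays of each mutant). Points are arrays and bars are the mean with its SD. In every panel the 9 mutant points lie on one side of the 6 wild-type points, below them for Sema3c and Epha4 and above them for the other 7 genes. Each panel has its own y scale.

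Probe sets of one gene did not always give one answer. Of the 42 genes with several probe sets, 8 had every probe set past the test in one direction over the mutants, 16 had some, 18 had none, and none had calls in both directions. Other genes with several probe sets were not counted in this way, so whether guidance genes differ from them is not known. By probe set, 40 of the 141 rose and 15 fell over the mutants, where 20.8% of all 34958 named probe sets passed (12.6% higher and 8.21% lower). For 6 genes only a dimmer probe set passed, and these are named here after their values were seen: Epha3, Sema3a, Sema3b, Sema5a, Plxna4 and Efna2. The widest gap was at Epha3, a receptor of A ephrins. Its brightest probe set had a log2 difference of -0.51 ± 0.26 over the mutants (adjusted p = 0.17). Another 2 fell, by 2.66 ± 0.21 and 2.07 ± 0.21 (SE), with adjusted p = 3.3e-07 and 4.1e-06, and their 9 mutant arrays lay below all 6 wild-type arrays (wild type 4.35 to 6.00 and mutants 2.16 to 2.67 for the first, wild type 5.10 to 5.68 and mutants 2.51 to 4.54 for the second). The fourth had a log2 difference of -0.12 ± 0.12. All 4 lay near or below the array median, and which exons or transcripts they read was not analysed here.

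**Figure D3:**
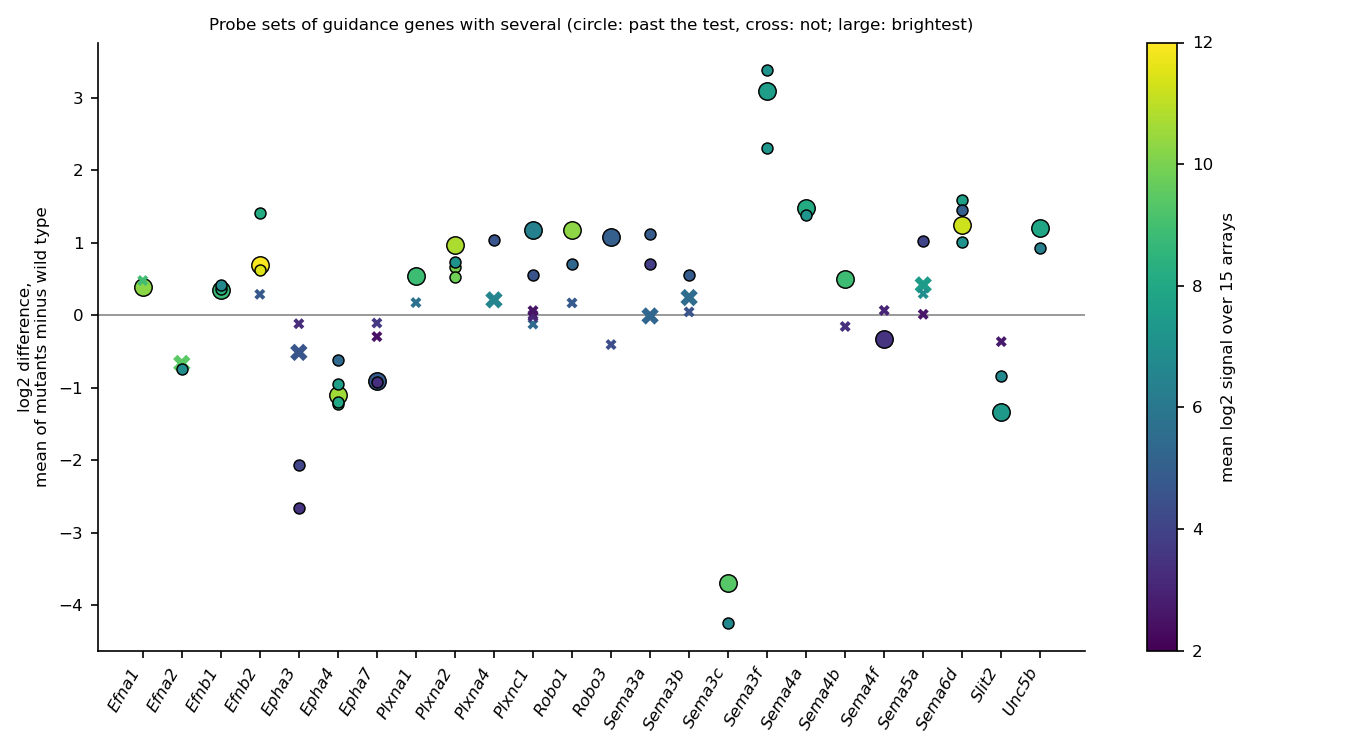
Log2 difference over the mutants (y axis) of each probe set of the guidance genes that have several probe sets and at least 1 past the test (x axis), with colour for the mean log2 signal, circles for an adjusted p under 0.05, crosses for the rest, and the large symbol for the brightest probe set. Probe sets of Sema3c, Sema3f, Sema6d, Epha4 and Plxna2 lie together on one side of 0, whereas those of Epha3, Sema3a and Plxnc1 are spread between 0 and a clear difference.

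Both neuropilins and several other co-receptors rose. Of 22 measured co-receptors and binding partners 8 rose and 2 fell over the mutants, 45.5% against 23.9% of all genes (14.0% higher and 9.91% lower), with a median log2 difference of 0.29. Nrp1, the neuropilin of Sema3a, had wild-type values of 12.15, 12.46 and 12.55 and mutant values of 12.97 to 13.22, and Nrp2, the neuropilin of Sema3f, had wild-type values of 10.60, 10.92 and 10.99 and mutant values of 11.57 to 11.85. Neither overlapped. The log2 differences over the mutants were 0.65 ± 0.08 (SE, adjusted p = 4.0e-05) for Nrp1 and 0.92 ± 0.09 (adjusted p = 2.5e-06) for Nrp2, and both rose in each mutant. Met, a receptor tyrosine kinase that can associate with plexins of the B class, rose by 3.40 ± 0.23 (adjusted p = 5.7e-08), from 4.23 to 5.99 in wild type to 8.0 to 9.54 in the mutants. Chl1, an adhesion molecule that takes part in semaphorin responses of axons, rose by 1.46, Cd72, a receptor of Sema4d on B cells, by 1.07, and Ptk7, a pseudokinase of planar polarity that binds plexins, by 1.05 (adjusted p = 4.4e-04, 0.005 and 7.5e-04). Cd72 and Ptk7 lost their calls with the macrophage mean held constant (adjusted p = 0.95 and 0.22), and Chl1 did so with the mean of all its probe sets (adjusted p = 0.075). Flrt2, a membrane protein that binds Unc5 receptors, fell by 1.36 ± 0.15 (SE, adjusted p = 1.1e-05).

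Effectors inside the cell that passed mostly rose. Of 41 measured effectors 11 rose and 2 fell over the mutants, 31.7% against 23.9% of all genes, with a median log2 difference of 0.08. Vav3, a signalling protein that acts downstream of Eph receptors, rose from 4.97 to 5.68 in wild type to 7.76 to 9.27 in the mutants (log2 difference 3.20 ± 0.13, adjusted p = 2.0e-10). Crmp1, a mediator of Sema3a signals in neurons, rose by 1.50 ± 0.20 (adjusted p = 6.4e-05), with no overlap between mutant and wild-type arrays. Mical2, an oxidase of actin, rose by 1.51, and Rnd1, a GTPase that binds plexins, by 1.09 (adjusted p = 1.3e-04 and 0.015). Both lost their calls with the macrophage mean held constant (adjusted p = 0.19 and 0.92). Tiam1, an exchange factor for Rac, fell by 1.04 ± 0.14 (SE, adjusted p = 7.8e-05), a call that ended with the mean of all its probe sets (adjusted p = 0.11) and with the macrophage mean held constant (adjusted p = 0.084).

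**Figure D4:**
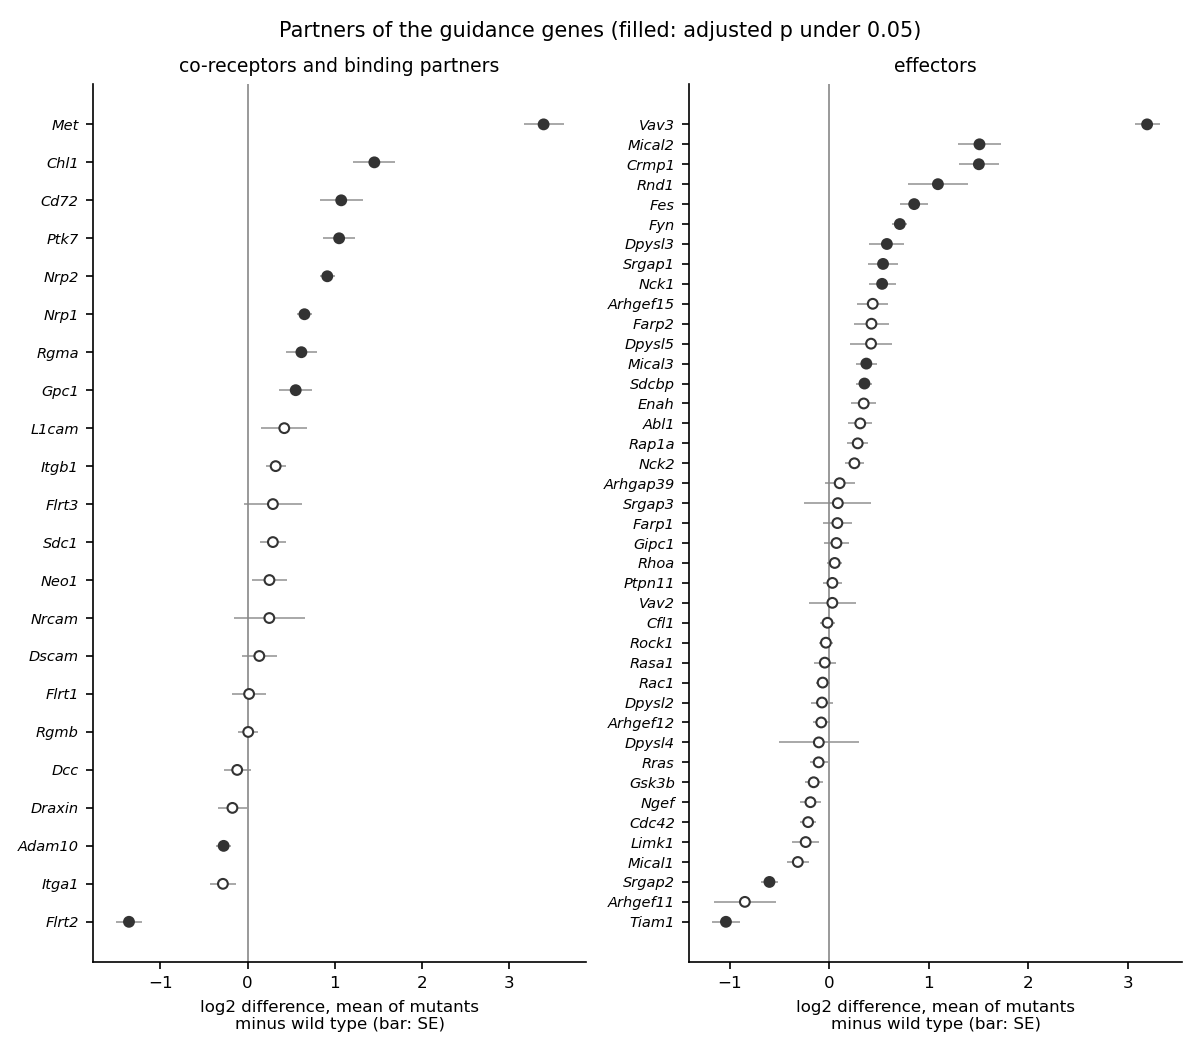
Log2 difference over the mutants (x axis, with SE bars) of the measured co-receptors and binding partners (left) and effectors (right) of the guidance genes, with filled points for an adjusted p under 0.05. Met and Vav3 stand apart at the top, with differences of 3.40 and 3.20, both neuropilins lie above 0, and most effectors lie near 0.

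Beside Efnb2 and Ephb4, the artery list was split in direction and the vein list leaned higher. Of 12 arterial genes 5 rose and 4 fell over the mutants, 2 each way by 2-fold or more, with a median log2 difference of -0.09. Of 8 venous genes 4 rose, all by 2-fold or more, and 2 fell by less, with a median of 0.93. That is 75% of each list, where 23.9% of all genes passed (14.0% higher and 9.91% lower). These lists were written with results of these arrays known and are given as counts.

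Most guidance genes that passed between mutants did so between Norrin KO and Lrp5 KO, at a share near that of all genes, and those calls rested on few arrays. Between Fz4 KO and Lrp5 KO none of the 66 passed in limma, where 0.225% of all genes did, and 8 had an unadjusted p under 0.05. Between Fz4 KO and Norrin KO 1 passed, where 2.32% of all genes did. Between Norrin KO and Lrp5 KO 4 were higher and 5 lower in Norrin KO, 9 of the 66 in all (13.6%), where 11.9% of all genes passed (9.50% higher and 2.43% lower).

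The 4 higher in Norrin KO were Sema3f, Ephb1, Plxnb3 and Plxna1. Sema3f, at 9.48, 9.25 and 9.53 in Norrin KO and 8.09, 8.49 and 7.91 in Lrp5 KO, had a log2 difference of 1.25 ± 0.19 (SE, adjusted p = 0.0027) and passed with any 1 array left out. Ephb1 differed by 1.20 ± 0.29 (adjusted p = 0.018), Plxna1 by 0.75 ± 0.19 (adjusted p = 0.023) and the X-linked Plxnb3, a receptor of Sema5a, by 0.95 ± 0.29 (adjusted p = 0.05). Plxnb3 is dim, at 4.04 to 5.05 in wild type, and lies at the threshold.

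The 5 lower in Norrin KO were Slit2, Sema3e, Epha1, Sema6b and Epha4. Slit2 read 4.96, 6.02 and 6.67 in Norrin KO and 9.24, 7.75 and 7.34 in Lrp5 KO, a log2 difference of -2.23 ± 0.52 (SE, adjusted p = 0.016). The first Lrp5 KO array and the first Norrin KO array are the extremes, and the call ended without either of them (adjusted p = 0.078 and 0.069). Sema3e differed by -0.90 ± 0.26 (adjusted p = 0.039), Sema6b by -0.74 ± 0.22 (adjusted p = 0.041) and Epha4 by -0.53 ± 0.12 (adjusted p = 0.013). Epha1, an A-class receptor of epithelia, was also the gene that passed between Fz4 KO and Norrin KO. It read 5.21, 5.69 and 5.24 in Norrin KO, below 6.38, 5.93 and 6.20 in Lrp5 KO, 6.08, 6.40 and 6.04 in Fz4 KO and 5.80 to 6.35 in wild type, with differences of -0.79 ± 0.19 (adjusted p = 0.019) from Lrp5 KO and 0.79 ± 0.19 (adjusted p = 0.047) for Fz4 KO minus Norrin KO.

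Leaving out Lrp5 KO 1 left 1 of the 9 calls between Norrin KO and Lrp5 KO, that of Sema3f, and 3.67% of all genes then passed. With the 3' to 5' gap held constant none was left, where 1.34% of all genes passed, and Sema3f then differed by 1.1 (adjusted p = 0.050). Lrp5 KO 1, Lrp5 KO 3 and wild type 4 are 3 arrays that stood apart in an earlier account of these arrays. Without them a single Lrp5 KO array was left, and Sema3f differed by 0.93. The gap, the male pattern and the genotype go together in Norrin KO and cannot be told apart in full.

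**Figure D5:**
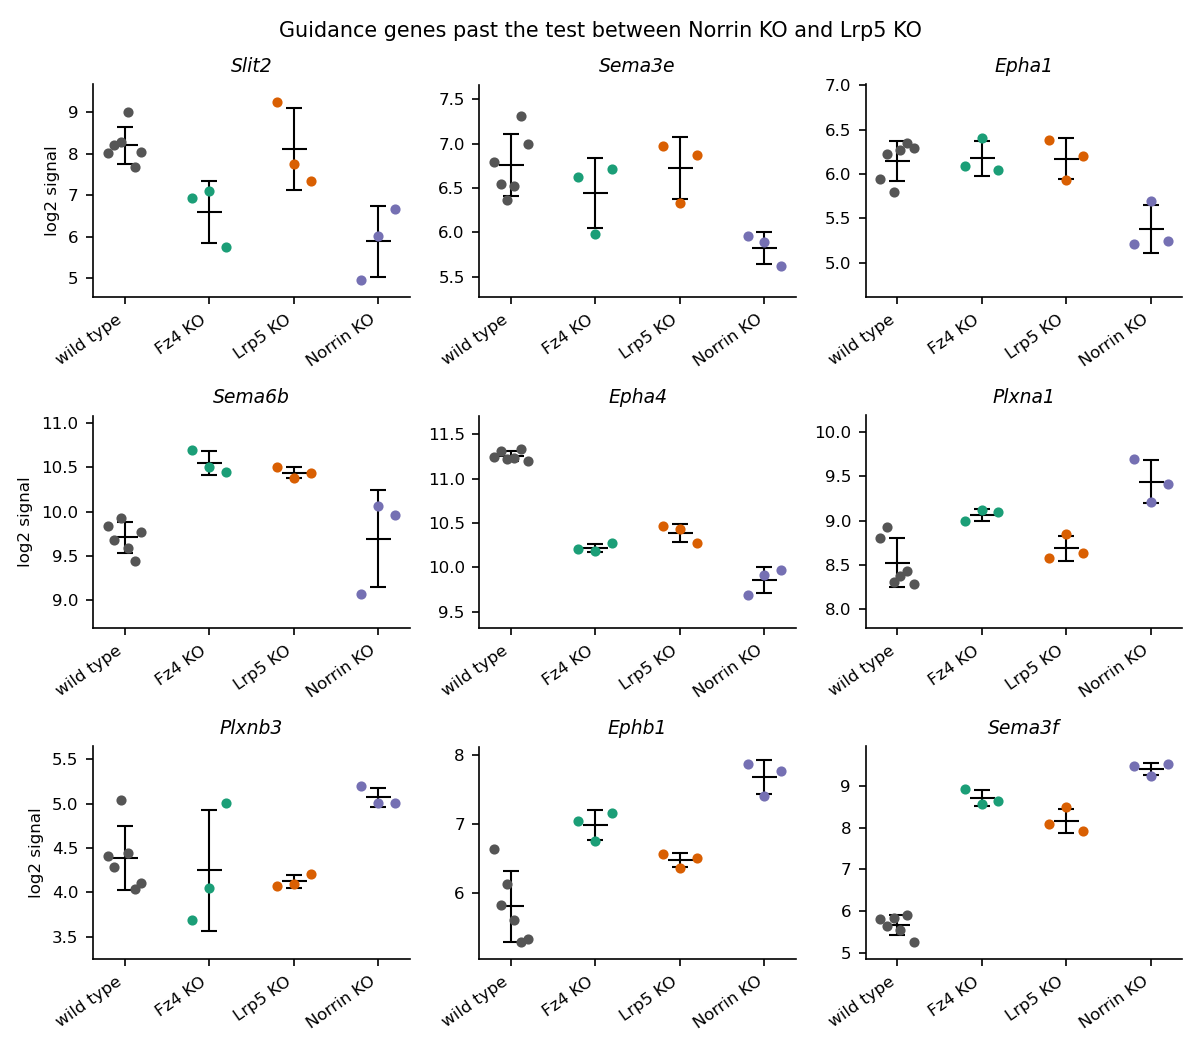
Log2 signal (y axis) on each array of the 9 guidance genes that passed between Norrin KO and Lrp5 KO, by genotype (x axis: 6 wild-type arrays and 3 arrays of each mutant). Points are arrays, bars are the mean with its SD, and each panel has its own y scale. Norrin KO lies below Lrp5 KO from Slit2 to Epha4 and above it from Plxna1 to Sema3f, and for Slit2 the first arrays of both groups are the extremes.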

How the data were processed

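Gene expression was measured with Affymetrix arrays in 15 pools of retinal endothelial cells. The deposited values are log2 signals which the authors made with RMA, a method that corrects background, normalizes quantiles and summarizes each probe set, per the submitters' processing notes. Its version is not given in the sources used here. Values were taken as deposited, with no filter on dim genes. Probe sets with exactly 1 symbol in the platform annotation were kept, and the brightest over the 15 arrays stood for its gene. The 4 group means were fitted in limma 3.58.1 under R 4.3.3 (lmFit, contrasts.fit, eBayes), with Benjamini-Hochberg adjustment over 18194 genes per contrast, and the same fit was run by probe set. The fit was tested on simulated data. The p-values measure the spread between these pools, and the number of arrays limits the precision. Across all groups same-numbered arrays did not deviate together (median correlation 0.0095), though those of Fz4 KO and wild type partly did. A block on a pairing seen in the arrays was tried as an alternative.

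Members were chosen by symbol. Named were members past the test with a log2 difference of 1 or more in a mutant or over the mutants, a list of 23 members known from vessels, members past the test between mutants (at most 5 each way), co-receptors and effectors past the test with a log2 difference of 1 or more over the mutants, and Nrp1, Nrp2, Dcc and Neo1. Members and lists were chosen with earlier results of these data known. Levels were not compared between genes. The alternatives were 14 planned settings, leaving out each array, and 1 setting added after seeing the data. The planned settings include the block on a pairing seen in the arrays, which was thus drawn from these data.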

Additional observations from a re-analysis of the deposited data

Results flagged for a closer look

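Single wild-type arrays stood apart for 3 of the 35 genes tested this way, where chance flags about 1 gene in 20. Epha2 read 10.02 on wild type 3, above the other wild-type arrays at 9.18 to 9.47. Robo1 read 10.02 on wild type 4, above the others at 9.37 to 9.58 and below every mutant array. Sema7a read 11.48 on wild type 5, below the others at 11.90 to 12.10.

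For 9 guidance genes the effects of 2 mutants differed by the test of the difference itself. Norrin KO minus Lrp5 KO was -0.79 for Epha1, -0.53 for Epha4, 1.20 for Ephb1, 0.75 for Plxna1, 0.95 for Plxnb3, -0.90 for Sema3e, 1.25 for Sema3f, -0.74 for Sema6b and -2.23 for Slit2 on the log2 scale. Fz4 KO minus Norrin KO was 0.79 for Epha1. The Norrin KO arrays also had the widest 3' to 5' gap (1.05 to 2.92) and a male pattern of Xist and Eif2s3y, and the part of these in the differences was tested only through the fit with the gap held constant.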

How the results depend on the processing

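Sema3c, Sema3f, Slit3 and Sema6d passed in all 3 mutants and over the mutants, each in its own direction, under every alternative that gave them a value and without each single array. Of 95 called values of named genes 34 did so. Without each single array the number of guidance genes past the test was 14 to 22 in Fz4 KO, 8 to 13 in Lrp5 KO, 20 to 29 in Norrin KO, 21 to 26 over the mutants, 0 to 2 between Fz4 KO and Norrin KO, 1 to 12 between Norrin KO and Lrp5 KO and 45 to 54 by probe set over the mutants. The shares of all genes in the same order were 10.5% to 18.4%, 8.34% to 14.6%, 18.6% to 27.4% and 20.5% to 24.9%. Between mutants they were 0.335% to 4.20% and 3.67% to 15.6%, and by probe set 17.55% to 21.7%. Counts that moved by more than 1.5 times are given here against 20 in Fz4 KO, 11 in Lrp5 KO, 28 in Norrin KO, 26 over the mutants, 1 between Fz4 KO and Norrin KO, 9 between Norrin KO and Lrp5 KO and 55 probe sets over the mutants. Percentages in brackets are the shares of all genes, or of all probe sets, that passed under the same setting. In the main fit the share of all genes over the mutants was 23.9%. With the replicate number as a block the counts were 12 in Fz4 KO (10.6%), 7 in Lrp5 KO (7.57%) and 16 over the mutants (13.3%). They were 0 between Fz4 KO and Norrin KO (0.335%) and 35 probe sets (10.8%). The 18 same-number pairs had correlations of deviations from -0.24 to 0.38, with a median of 0.0095, so the number marked no pairing across all groups. The highest was that of Fz4 KO 3 with wild type 3. Lrp5 KO 1, 2 and 3 correlated with wild type 4, 5 and 6 at 0.661, 0.335 and 0.257, and Fz4 KO 1, 2 and 3 with wild type 1, 2 and 3 at 0.258, 0.06 and 0.381, a hint from the arrays and not from the labels. With those pairs as blocks and Norrin KO left out, 16 passed in Lrp5 KO (14 higher and 2 lower, against 9 and 2) and 20 in Fz4 KO (14 higher and 6 lower). Of all genes 17.4% passed in Lrp5 KO and 19.0% in Fz4 KO under that setting. A minimum change of 2-fold gave 4 in Lrp5 KO (5.8%), 16 in Norrin KO (11.5%) and 12 over the mutants (7.72%). It gave 0 between Fz4 KO and Norrin KO (1.09%), 3 between Norrin KO and Lrp5 KO (5.66%) and 27 probe sets (6.78%). With the macrophage mean as covariate the counts were 10 in Fz4 KO (4.96%), 17 in Norrin KO (9.0%), 15 over the mutants (7.54%) and 25 probe sets (5.70%). With the photoreceptor mean they were 16 over the mutants (15.5%) and 33 probe sets (13.0%). Between mutants they were 0 for Fz4 KO and Norrin KO (1.86%) and 2 for Norrin KO and Lrp5 KO (4.29%). With the 3' to 5' gap they were 15 in Norrin KO (12.2%), 0 between Fz4 KO and Norrin KO (0.066%) and 0 between Norrin KO and Lrp5 KO (1.34%). Genes above the median gene gave 18 in Norrin KO (39.8% of all such genes) and 2 between Fz4 KO and Norrin KO (7.7%), with fewer members tested. Between Fz4 KO and Norrin KO centring the arrays gave 0 (2.17%) and the mean of all probe sets 2 (1.51%). Leaving out probe sets ending in _x_at or _s_at gave 0 there (1.93%). Fits of only the groups compared gave 0 between Fz4 KO and Norrin KO (0.104%) and 2 between Norrin KO and Lrp5 KO (1.09%). Without Lrp5 KO 1, Lrp5 KO 3 and wild type 4, an alternative chosen after seeing the data, a single Lrp5 KO array was left. Fewer guidance genes and fewer of all genes then passed in the contrasts with Lrp5 KO, and their counts are not given. Directions turned for Sema3a with the mean of all probe sets (0.85 in Norrin KO and 0.61 over the mutants), for Sema4d with the macrophage mean (-0.85 in Fz4 KO, -0.77 in Lrp5 KO and -0.999 over the mutants) and for Sema6b in Norrin KO with the gap (0.51). The cause was not tested. The 19 members below the array median on every array are the ones whose changes the signal limits most.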
